A study of Homo sapiens with 15 samples.

Results

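Genes of the ZNF series, named ZNF and a number, mostly encode C2H2 zinc finger proteins, and those with a well detected transcript were followed in ZR-75-1 cells after brief exposure to steroid hormones. Members were chosen by their measured level: a member is a gene whose array symbol is ZNF, a number and at most 1 letter, represented by its probe set of highest mean and kept when that mean over all 15 arrays was at least log2 6. Of 471 ZNF genes measured, 193 were kept and 278 lay under that level, among 14361 named genes in all. The arrays hold ZR-75-1, an established human line from a breast cancer that expresses the estrogen receptor, grown in medium with serum. In 5 groups of 3 arrays the cells received vehicle (0.1% ethanol), or 10 nM of MPA, PROG, DHT or DEX, for 6 h. These abbreviations are usually read as medroxyprogesterone acetate (a synthetic progestin), progesterone, dihydrotestosterone (an androgen) and dexamethasone (a synthetic glucocorticoid). The labels also call the vehicle cells untreated, do not give the solvent of the treated cells, and do not say that the arrays of a group came from separate cultures. P-values therefore reflect no more than array-to-array spread, possibly technical in origin, and all groups come from 1 cell line.

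C2H2 zinc finger proteins bind DNA through tandem fingers, each holding a zinc ion between cysteines and histidines. Many also carry a KRAB domain, which recruits the co-repressor TRIM28 and histone methyltransferases, and they form one of the largest families of human transcription factors. Other proteins with a ZNF symbol work in RNA handling, ubiquitin transfer or as co-factors of other regulators. Close paralogs share long stretches of sequence, and cross-hybridisation of their probes was not tested.

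Values are log2 expression levels, and differences subtract the log2 level of the second group named, or of vehicle, from that of the first, ± standard errors from limma (n = 3 arrays a group). A gene was called at a limma adjusted p under 0.05 over all 14841 named probe sets. The array medians were 3.69 to 3.73, and arrays of 1 group correlated across probe sets with r = 0.998 in each case. The luminal markers KRT18, GATA3, FOXA1 and KRT19 had means of 12.1, 10.1, 9.97 and 9.88, and ESR1 and PGR of 7.69 and 7.97. The luminal keratin KRT8 was lower, at 5.87. The basal keratins KRT5 and KRT14 lay at 2.97 and 2.96 and VIM at 3.67, all under the array medians.

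The rule used the mean level, so levels are a description. Member means ran from 6.02 to 10.7 with a median of 6.96, and 149 of the 193 lay below log2 8. The members just inside the limit were ZNF503 at 6.02, ZNF416 at 6.03 and ZNF256 at 6.04, and those just outside were ZNF513 at 5.98, ZNF417 at 5.97 and ZNF395 at 5.95. The vehicle mean was under log2 6 in 6 members that passed through the treated groups, of which ZNF689 was called. The within-group SD of a member had a median of 0.0841, against 0.063 over all named probe sets of at least log2 6. Those sets were not matched for level above the limit, and spread at equal level was not compared. The half-width of a member's 95% interval had a median of 0.143. The least repeatable members were ZNF430, ZNF92 and ZNF708, with within-group SDs of 0.37, 0.27 and 0.26.

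Sequences from the RefSeq promoter table are shown for ZNF652, ZNF689 and ZNF675, the 3 members with the largest called differences from vehicle among the 8 called members with an entry there. They are the 250 bases before the most upstream start listed for each gene, 5′ to 3′ on the gene's strand, which is the minus strand in each case, in GRCh38.p14. Capitals mark GC boxes (GGGCGG or its complement CCGCCC) and CCAAT boxes (CCAAT or ATTGG), motifs chosen after the sequences were seen.
ZNF652, chr17:49362474-49362723: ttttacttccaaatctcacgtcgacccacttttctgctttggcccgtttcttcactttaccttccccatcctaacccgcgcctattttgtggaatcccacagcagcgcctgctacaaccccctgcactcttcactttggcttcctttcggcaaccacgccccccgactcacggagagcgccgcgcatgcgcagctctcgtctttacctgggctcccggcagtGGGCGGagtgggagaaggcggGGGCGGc
ZNF689, chr16:30610434-30610683: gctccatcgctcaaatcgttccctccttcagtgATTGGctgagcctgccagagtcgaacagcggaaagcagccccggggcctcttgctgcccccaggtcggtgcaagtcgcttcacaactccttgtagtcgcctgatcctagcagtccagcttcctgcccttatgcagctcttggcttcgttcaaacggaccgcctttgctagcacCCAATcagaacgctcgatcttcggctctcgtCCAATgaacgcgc
ZNF675, chr19:23687213-23687462: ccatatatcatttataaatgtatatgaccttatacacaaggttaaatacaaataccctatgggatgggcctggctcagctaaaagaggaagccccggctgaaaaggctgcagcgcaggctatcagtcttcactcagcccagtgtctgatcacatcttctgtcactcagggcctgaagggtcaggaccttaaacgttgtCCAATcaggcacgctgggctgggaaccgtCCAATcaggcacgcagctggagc

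ZNF652 has 2 GC boxes and no CCAAT box in this stretch, ZNF689 has 3 CCAAT boxes and no GC box, and ZNF675 has 2 CCAAT boxes in a less GC-rich stretch (50.4% G or C, against 60.0% for ZNF652). A GC box was found in 61.2% of the members' upstream stretches, 55.7% of those of all named genes of the array and 42.6% of all 35116 in the table. In the 15 stretches of members called against vehicle it was found in 40%. A CCAAT box was found in 38.8% of the members' stretches, 32.6% of those of named genes, 32% of all and 40% of those of called members. The steroid response hexamer AGAACA, searched on both strands of the 300-base windows around each start, was found in 16 of 214 member windows (7.48%), 11.1% of those of named genes and 14.8% of all windows. In the 23 windows of 15 members called in any comparison it was found once, at a start of ZNF436. The palindrome of AGAACA and its complement TGTTCT, with 3 bases between them, was found in no member window and in 1 of all 35116. These counts describe letters in short windows and say nothing of the receptors. By position, 71 of the 171 members with an entry (41.5%) lie on chromosome 19, against 5.53% of all genes in the table.

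A few members rose, and most were not called with any compound. With any compound, 10 of 193 were called against vehicle and 183 were not. How many of all named probe sets were called with any compound was not counted, and shares for each compound are given below. ZNF652 and ZNF703 rose with all 4 compounds, ZNF689 with 3, ZNF462 and ZNF518B were called with 2, and 5 members with 1. The F test over the 4 compounds called 9 members (4.66%), against 5.13% of all named probe sets and 8.99% of those of at least log2 6. The members' share lay near the former and under the latter.

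**Figure D1:**
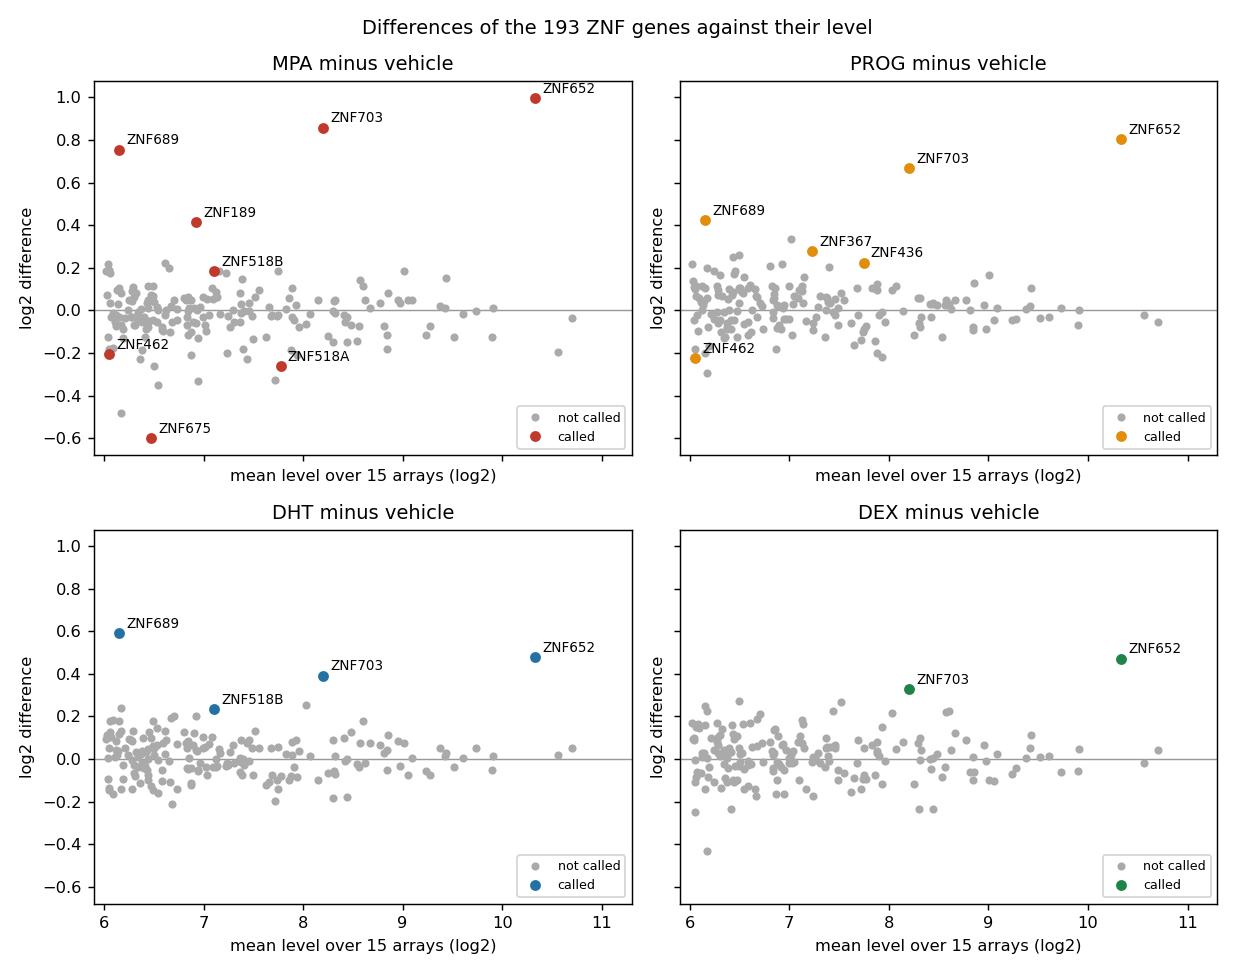
Difference of each of the 193 ZNF genes from vehicle (vertical axis, log2) against its mean level over 15 arrays (horizontal axis, log2), 1 panel per compound, with called genes coloured and named and the others in grey. ZNF652 and ZNF703 stand above the cloud in all 4 panels, and the grey points lie close to 0, more widely at low levels.

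ZNF652 is a C2H2 DNA-binding repressor that works with the co-repressor CBFA2T3 and has been studied in breast epithelium. Its vehicle arrays read 9.82, 9.70 and 9.83. The MPA arrays read 10.84, 10.69 and 10.81, and the PROG arrays 10.65, 10.53 and 10.58. The DHT arrays read 10.21, 10.32 and 10.25, and the DEX arrays 10.23, 10.32 and 10.21. Every treated array lay above every vehicle array, the MPA arrays lay above the PROG arrays, and the DHT and DEX arrays overlapped. The rise was 0.997 ± 0.056 with MPA (limma adjusted p = 3.12e-08), a 2.00-fold change. It was 0.80 ± 0.056 with PROG (1.75-fold, limma adjusted p = 6.95e-07). With DHT it was 0.48 ± 0.056 (limma adjusted p = 4.26e-04) and with DEX 0.47 ± 0.056 (limma adjusted p = 4.05e-04), 1.39-fold with each. These calls held with each array left out and under every alternative run.

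ZNF703 is a co-factor of transcription in the NET family, without a tandem finger array, whose gene is amplified in some luminal breast cancers. Its vehicle arrays read 7.73, 7.79 and 7.74. The MPA arrays read 8.65, 8.48 and 8.70, the PROG arrays 8.41, 8.45 and 8.40, the DHT arrays 8.09, 8.16 and 8.18 and the DEX arrays 8.02, 8.10 and 8.12. As for ZNF652, all 12 treated arrays lay above the vehicle arrays, with MPA highest and DHT and DEX overlapping. The rise was 0.86 ± 0.054 with MPA (1.81-fold, limma adjusted p = 1.04e-07) and 0.67 ± 0.054 with PROG (1.59-fold, limma adjusted p = 2.87e-06). It was 0.39 ± 0.054 with DHT (1.31-fold, limma adjusted p = 0.00241) and 0.33 ± 0.054 with DEX (1.25-fold, limma adjusted p = 0.00845). The DEX call was lost without DEX 3 (adjusted p = 0.0509) and in the fit of the 2 groups alone.

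ZNF689 is a C2H2 protein with a KRAB domain. Its vehicle arrays read 5.63, 5.79 and 5.83, under the log2 6 limit, so it is a member only through the treated groups and its count among the members is no independent one. The MPA arrays read 6.38, 6.51 and 6.62, the PROG arrays 6.15, 6.36 and 6.01, the DHT arrays 6.30, 6.37 and 6.35 and the DEX arrays 6.07, 5.88 and 6.04. Its order differed from that of the former genes, with DHT above PROG on average and the arrays of those groups overlapping. It rose by 0.75 ± 0.087 with MPA (1.69-fold, limma adjusted p = 5.60e-05), by 0.59 ± 0.087 with DHT (1.51-fold, limma adjusted p = 0.00353) and by 0.42 ± 0.087 with PROG (1.34-fold, limma adjusted p = 0.0150). With DEX the difference was 0.25 ± 0.087 and was not called (limma adjusted p = 0.302), though all 3 DEX arrays lay above vehicle. The PROG call was lost without vehicle 1 or PROG 2, at adjusted p up to 0.0779, and in the fit of the 2 groups alone.

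**Figure D2:**
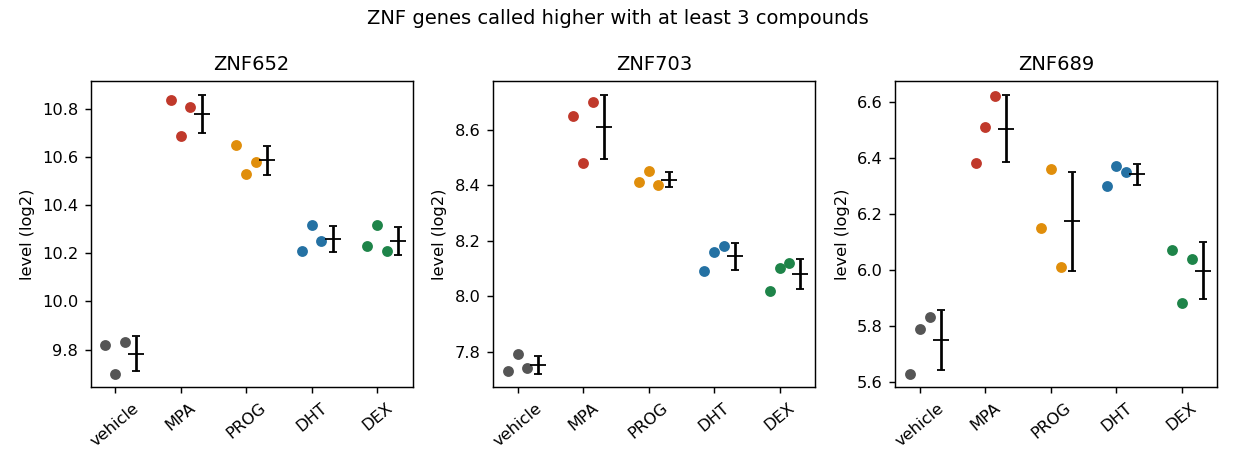
Log2 level of ZNF652, ZNF703 and ZNF689 on each of the 15 arrays (coloured points, by group on the horizontal axis), with the group mean and SD of 3 arrays as a black bar. The vertical axes differ and do not start at 0, and every treated array lies above the vehicle arrays in each panel.

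MPA called 8 members (4.15%), 5 higher and 3 lower, against 5.93% of all named probe sets, of which 4.11% were higher and 1.82% lower, and 10.6% of those of at least log2 6. Beside the former genes, ZNF189, a C2H2 protein with a KRAB domain, rose from 6.87, 6.64 and 6.73 on the vehicle arrays to 7.16, 7.22 and 7.10 (0.41 ± 0.095, limma adjusted p = 0.0171). ZNF675, a KRAB protein also known as an inhibitor of TRAF6 signalling, fell from 6.85, 6.72 and 6.29 to 6.16, 5.97 and 5.93, or 0.66 of the vehicle level (-0.60 ± 0.15, limma adjusted p = 0.0307). Neither group overlapped its vehicle arrays, but the vehicle arrays of ZNF675 were themselves spread over more than 0.5. ZNF462, a large C2H2 protein linked to chromatin organisation, fell from 6.21, 6.21 and 6.14 to 5.95, 5.94 and 6.05 (-0.21 ± 0.048, limma adjusted p = 0.0171). ZNF518A fell from 7.93, 7.76 and 7.94 to 7.51, 7.72 and 7.61 (-0.26 ± 0.073, limma adjusted p = 0.0478). Its relative ZNF518B, which binds the histone methyltransferase EHMT2, rose from 6.94, 6.97 and 7.03 to 7.11, 7.20 and 7.18 (0.18 ± 0.047, limma adjusted p = 0.0341). The related pair thus moved in opposite directions with MPA, by small amounts. The calls of ZNF189, ZNF675, ZNF462, ZNF518A and ZNF518B were each lost when any 1 of 4 of the 6 arrays was left out. Those of ZNF675, ZNF462, ZNF518A and ZNF518B were lost in the fit of the 2 groups alone, those of ZNF518A and ZNF518B also after centring and with all probe sets tested, and that of ZNF518A with the replicate number as a block. The count of 8 became 4 without vehicle 1, 5 without vehicle 2 and 4 without MPA 2.

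PROG called 6 members (3.11%), 5 higher and 1 lower, against 2.82% of all named probe sets (2.43% higher, 0.391% lower) and 5.15% of those of at least log2 6. ZNF462 fell here as well, to 6.01, 5.93 and 5.95 (-0.22 ± 0.048, limma adjusted p = 0.0187). Its DHT arrays (6.12, 6.01 and 6.02) and DEX arrays (6.03, 6.12 and 6.08) also lay under all vehicle arrays, without a call. ZNF367, a C2H2 protein first described in erythroid cells, rose from 7.25, 7.08 and 7.11 to 7.43, 7.44 and 7.40 (0.28 ± 0.065, limma adjusted p = 0.0351). ZNF436, a KRAB protein, rose from 7.60, 7.62 and 7.71 to 7.80, 7.89 and 7.91 (0.22 ± 0.056, limma adjusted p = 0.0488). All these PROG arrays lay clear of vehicle. Some groups without a call did so too. With MPA, ZNF367 read 7.27, 7.31 and 7.39 and ZNF436 7.80, 7.78 and 7.91, and with PROG ZNF189 read 6.94, 7.05 and 6.90. The ZNF367 and ZNF436 calls were each lost without any 1 of 5 of the 6 arrays with the replicate number as a block, with all probe sets tested and in the fit of the 2 groups alone, and the ZNF436 call also after quantile normalization and after centring. The ZNF462 call was lost without vehicle 1, vehicle 2, PROG 2 or PROG 3 and in the fit of the 2 groups alone. The count of 6 became 3 without vehicle 1, vehicle 2 or PROG 3 and 2 without PROG 2.

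DHT called 4 members (2.07%), all higher, against 0.889% of all named probe sets (0.775% higher) and 1.65% of those of at least log2 6. Beside ZNF652, ZNF703 and ZNF689 this was ZNF518B, called with MPA as well. It read 7.17, 7.23 and 7.24 with DHT (0.23 ± 0.047, limma adjusted p = 0.0352), above all 3 vehicle arrays. That call was lost without any 1 of vehicle 1, vehicle 2, DHT 1, DHT 2 and DHT 3, after quantile normalization, with all probe sets tested and in the fit of the 2 groups alone. DEX called 2 members (1.04%), both higher, against 1.11% of all named probe sets (0.957% higher) and 2.06% of those of at least log2 6. These were ZNF652 and ZNF703. The count became 4 without DEX 2 and 1 without DEX 3.

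**Figure D3:**
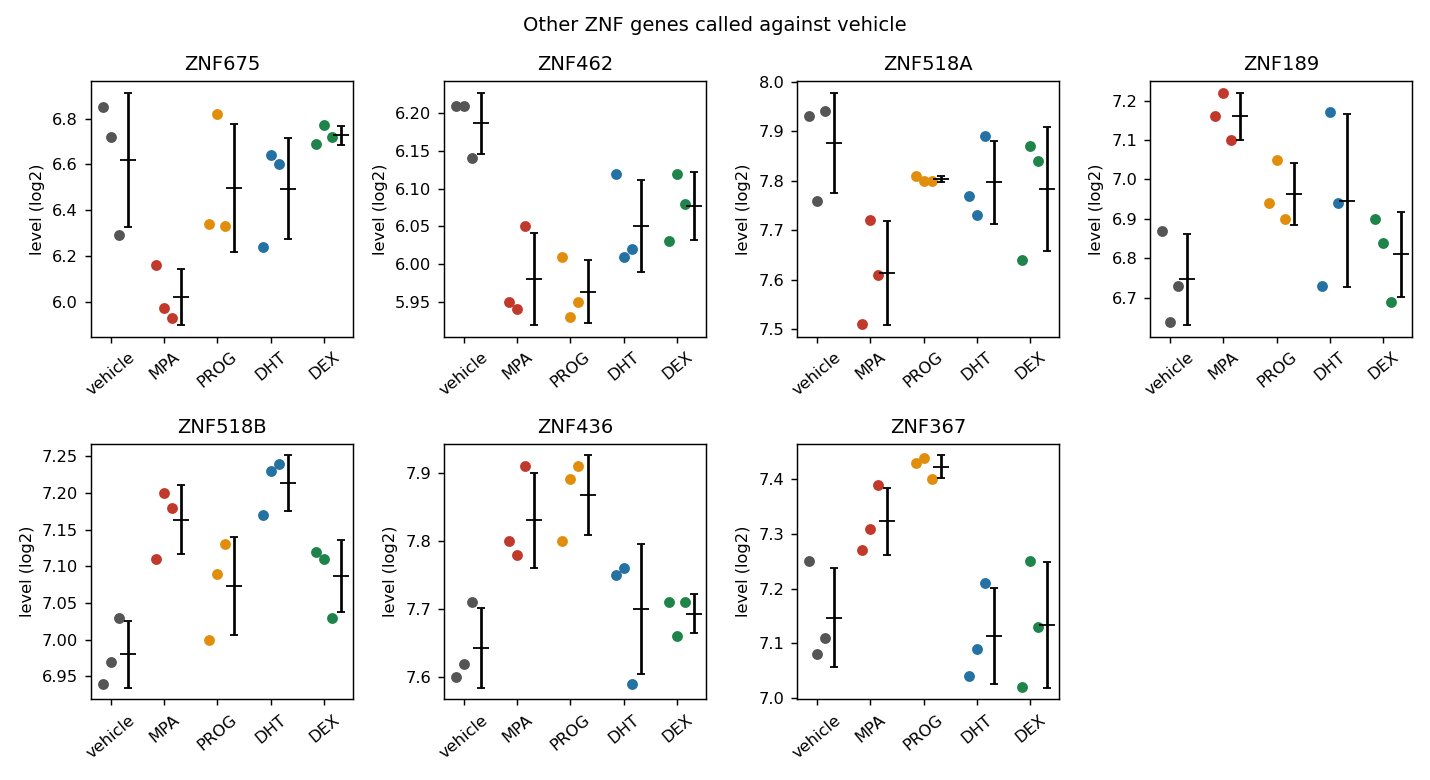
Log2 level on each of the 15 arrays (coloured points, by group) for the 7 other ZNF genes called against vehicle with at least 1 compound, with the group mean and SD of 3 arrays as a black bar. The vertical axes differ and do not start at 0, and the vehicle and treated groups of a called comparison do not overlap, by margins that are small beside those of ZNF652.

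Most differences were held to a narrow range. The 95% interval of the difference lay within a 1.5-fold change in either direction for 185 of 193 members with MPA, 187 with PROG, 189 with DHT and 189 with DEX. Of all 14361 named genes it did so for 13878, 14056, 14156 and 14156, so a narrow range was no trait of the members. The point estimate passed 1.5-fold for 4 members with MPA, 2 with PROG, 1 with DHT and none with DEX. Of all named genes it did so for 170, 88, 25 and 28. The members' median difference was -0.017 with MPA, 0.020 with PROG, 0.013 with DHT and 0.013 with DEX, against -0.003, 0.000, -0.003 and 0.010 over all named genes. Quantile normalization turned the PROG and DEX medians to -0.004 and -0.011, so those small shifts have no settled direction. The 3 treated arrays lay clear of the 3 vehicle arrays in 20.2% of members with MPA, 14% with PROG, 12.4% with DHT and 19.2% with DEX, against 19.1%, 15.5%, 12.7% and 13.6% of all named probe sets and 28.8%, 21.1%, 17.3% and 18.7% of those of at least log2 6.

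Of a list of genes with known roles in cancer or gene control, the members ZNF652, ZNF703 and ZNF436 were called as described above. The 10 members of that list given here were not called against vehicle with any compound. Nor was ZNF598, which is on the same list and is described below. ZNF217, an amplified breast cancer gene whose product represses transcription, read 9.68, 9.79 and 9.73 with vehicle and 9.73, 9.73 and 9.73 with MPA. Its differences ran from -0.06 ± 0.040 with DEX to 0.05 ± 0.040 with DHT, and its 95% interval with MPA was -0.09 to 0.08. ZNF217 was thus held to a small range with every compound. ZNF281, a C2H2 factor linked to pluripotency, read 8.48, 8.55 and 8.45 with vehicle and 8.74, 8.76 and 8.65 with DEX (0.22 ± 0.054, limma adjusted p = 0.0729, not called), with no overlap. That difference was called with the replicate block, with trended robust eBayes and with dim probe sets left out. Its limma adjusted p ran from 0.0173 to 0.199 over the alternatives that left out no vehicle or DEX array, among them the fit of the 2 groups alone. ZNF24, a SCAN domain protein, had its widest difference with MPA (-0.13 ± 0.049, limma adjusted p = 0.183). ZNF143, which binds many promoters, ZNF146, ZNF148, ZNF207, which acts at the mitotic spindle, ZNF326, a subunit of an RNA splicing complex, ZNF350, a partner of BRCA1, and ZNF706 were not called with any compound. The differences of those 7 genes ranged from -0.10 for ZNF326 with DEX to 0.11 for ZNF706 with PROG.

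ZNF708 gave the largest falls that were not called, -0.48 ± 0.19 with MPA (limma adjusted p = 0.184) and -0.43 ± 0.19 with DEX (limma adjusted p = 0.433). Its vehicle arrays read 6.59, 6.30 and 6.43, its MPA arrays 6.22, 5.46 and 6.20 and its DEX arrays 6.07, 6.21 and 5.74. Both groups lay under vehicle, but single arrays (MPA 2, DEX 3) carried much of the distance. ZNF430 differed with MPA by -0.35 ± 0.26 (limma adjusted p = 0.551), on arrays of 5.43, 6.89 and 6.57, and the other MPA arrays lay on either side of the vehicle arrays at 6.68, 6.60 and 6.66.

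The 4 compounds were also set against each other at the same dose and time, in 6 comparisons. ZNF652 was higher with MPA than with DHT by 0.52 ± 0.056 (limma adjusted p = 4.98e-05) and than with DEX by 0.53 ± 0.056 (limma adjusted p = 4.51e-05). It was higher with PROG than with DHT by 0.33 ± 0.056 (limma adjusted p = 0.00545) and than with DEX by 0.33 ± 0.056 (limma adjusted p = 0.00552). All 4 of those calls held with each array left out. ZNF703 followed the same order. It was higher with MPA by 0.47 ± 0.054 against DHT (limma adjusted p = 1.11e-04) and 0.53 ± 0.054 against DEX (limma adjusted p = 3.23e-05), and with PROG by 0.28 ± 0.054 against DHT (limma adjusted p = 0.0157) and 0.34 ± 0.054 against DEX (limma adjusted p = 0.00392). The PROG minus DHT call of ZNF703 was lost without PROG 1, PROG 2 or DHT 1. Between MPA and PROG neither gene was called, with 0.19 ± 0.056 for ZNF652 (95% interval 0.07 to 0.31, limma adjusted p = 0.255) and 0.19 ± 0.054 for ZNF703 (95% interval 0.07 to 0.31, limma adjusted p = 0.251). Between DHT and DEX the differences were 0.01 (95% interval -0.11 to 0.13) and 0.06 (95% interval -0.05 to 0.18).

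**Figure D4:**
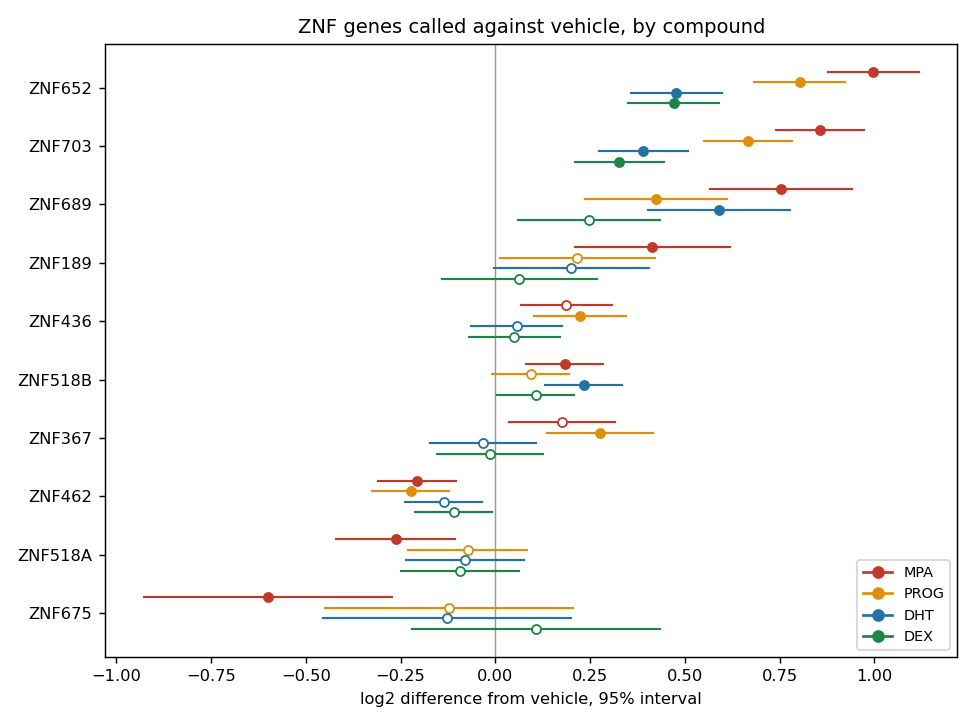
Log2 difference from vehicle (horizontal axis) with its 95% interval for the 10 ZNF genes called against vehicle, 1 coloured line per compound, filled points where called. ZNF652 and ZNF703 show MPA farthest from vehicle, then PROG, then DHT and DEX together, while the DHT point of ZNF689 lies to the right of its PROG point.

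MPA against PROG called 1 member (0.518%), against 0.29% of all named probe sets (0.0539% lower) and 0.501% of those of at least log2 6. It was ZNF749, a KRAB protein, which read 7.17, 7.17 and 7.31 with MPA and 7.68, 7.53 and 7.59 with PROG, with vehicle at 7.42, 7.37 and 7.40 between them. The difference was -0.38 ± 0.053 (limma adjusted p = 0.00617) and held with each array left out, but not in the fit of the 2 groups alone. The 2 progestins thus lay on opposite sides of vehicle for ZNF749, while neither differed from vehicle by a call (-0.18 ± 0.053, limma adjusted p = 0.0685 with MPA, and 0.20 ± 0.053, limma adjusted p = 0.0628 with PROG).

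MPA against DHT called 5 members (2.59%), 2 higher and 3 lower, against 3.51% of all named probe sets (2.53% higher, 0.977% lower) and 6.03% of those of at least log2 6. The 3 lower with MPA were ZNF267 (-0.32 ± 0.081, limma adjusted p = 0.0471), ZNF485 (-0.31 ± 0.070, limma adjusted p = 0.0240) and ZNF236 (-0.19 ± 0.043, limma adjusted p = 0.0197). Each of those calls was lost without any 1 of 4 arrays. Those of ZNF267 and ZNF236 were lost in the fit of the 2 groups alone, and that of ZNF267 also with the replicate number as a block and with all probe sets tested. The count became 3 without MPA 2 or DHT 1. MPA against DEX called 8 members (4.15%), 6 higher and 2 lower, against 4.06% (2.49% higher, 1.57% lower) and 7.27%. ZNF485, a KRAB protein, read 7.22, 7.27 and 7.10 with MPA and 7.75, 7.46 and 7.75 with DEX (-0.46 ± 0.070, limma adjusted p = 0.00120), around vehicle arrays of 7.44, 7.40 and 7.44. For ZNF485 as well the compound groups lay on opposite sides of vehicle, with no call against vehicle for either, and its call was lost in the fit of the 2 groups alone. ZNF675 was lower with MPA than with DEX by -0.71 ± 0.15 (limma adjusted p = 0.0155), a call lost without MPA 2, MPA 3, DEX 2 or DEX 3. ZNF689 was higher with MPA by 0.51 ± 0.087 (limma adjusted p = 0.00328).

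Smaller differences between MPA and DEX were called as well. ZNF280C read 9.03, 9.15 and 9.21 with MPA and 8.83, 8.86 and 8.84 with DEX (0.29 ± 0.055, limma adjusted p = 0.00643). ZNF341, an activator of STAT3 transcription, read 6.12, 6.23 and 6.20 with MPA and 5.87, 5.92 and 5.98 with DEX, on opposite sides of vehicle arrays that all read 6.01, and was not called against vehicle with either. It differed by 0.26 ± 0.050 (limma adjusted p = 0.00713). ZNF598, a ubiquitin ligase that senses collided ribosomes, differed by 0.34 ± 0.084 (limma adjusted p = 0.0352), a call lost without DEX 2 or any 1 of the 3 MPA arrays, with all probe sets tested and in the fit of the 2 groups alone. The ZNF280C and ZNF341 calls held with each array left out, but not in the fit of the 2 groups alone.

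PROG against DHT called 3 members (1.55%), all higher, against 1.71% (1.36% higher, 0.35% lower) and 3.06%, and PROG against DEX 4 (2.07%), all higher, against 1.42% (1.03% higher, 0.391% lower) and 2.46%. Beside ZNF652 and ZNF703, ZNF367 was higher with PROG than with DHT by 0.31 ± 0.065 (limma adjusted p = 0.0233) and than with DEX by 0.29 ± 0.065 (limma adjusted p = 0.0422). ZNF280C was higher with PROG than with DEX by 0.27 ± 0.055 (limma adjusted p = 0.0225). The ZNF367 calls were each lost without any 1 of 5 arrays and in the fit of the 2 groups alone, the one against DEX also after centring, with the replicate number as a block and with all probe sets tested, and that of ZNF280C without any 1 of the 6. The count of 3 became 1 without PROG 1, PROG 2 or DHT 1, and the count of 4 became 2 without PROG 1, PROG 2 or PROG 3. DHT against DEX called 0 members in limma's test, against 0.654% of all named probe sets (0.256% higher, 0.398% lower) and 1.17% of those of at least log2 6. At an unadjusted p under 0.05 there were 29 members, and 1365 of all 14361 named genes. The count of 0 became 2 without DHT 3 and 1 without DEX 1.

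By position, chromosome 19 is where many KRAB zinc finger genes stand in clusters. Of the 71 members placed there, ZNF675 was called with MPA, and PROG, DHT and DEX called 0 in limma's test. With MPA, PROG, DHT and DEX, 11, 8, 0 and 7 of the 71 had an unadjusted p under 0.05. Of all 14361 named genes 2537, 1680, 1387 and 1499 did. Of the 100 members placed on other chromosomes, 5, 4, 3 and 1 were called with those compounds. Only the 171 members with a promoter entry were placed. The called genes ZNF703 and ZNF462 have no such entry and are counted in neither group. The share called on chromosome 19 with MPA was thus 1.41%, and 5.93%, 2.82%, 0.889% and 1.11% of all named probe sets were called with the 4 compounds. The difference between the positions was not tested. In the order of protein-coding genes, 50 of 191 members had another member next to them, among them the called genes ZNF689 and ZNF675. The longest run of adjacent members was ZNF805, ZNF460, ZNF543 and ZNF304, and none of those was called against vehicle. Within it the DEX differences were -0.04 ± 0.13, -0.01 ± 0.074, 0.27 ± 0.061 and 0.14 ± 0.043, in that order. Whether adjacent genes differed from each other was not tested.

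The machinery that KRAB proteins recruit was measured through a list of 28 genes. MPA called 2 of the 28 (7.14%), both higher, against 5.93% of all named probe sets and 10.6% of those of at least log2 6, so the share lay near the background. RBBP7, a histone-binding subunit of chromatin complexes, rose by 0.19 ± 0.039 (limma adjusted p = 0.00809), and UHRF1, which guides maintenance DNA methylation, by 0.24 ± 0.055 (limma adjusted p = 0.0147). PROG called 1 of the 28 (3.57%, against 2.82%), which was UHRF1 (0.24 ± 0.055, limma adjusted p = 0.0264). DHT and DEX called 0 of the 28 in limma's test, against 0.889% and 1.11% of all named probe sets. At an unadjusted p under 0.05 there were 1 and 3 of the 28, and 1387 and 1499 of all 14361 named genes. The list's median differences were between -0.013 and 0.015 with the 4 compounds. Of 45 genes of the ZSCAN, ZKSCAN and ZFP families, 0 were called against vehicle with any compound in limma's test. With MPA, PROG, DHT and DEX, 5.93%, 2.82%, 0.889% and 1.11% of all named probe sets were called. Such shares are small for 45 genes, so the 0 is not read as a result about these families. In the same order, 2, 4, 1 and 2 of the 45 had an unadjusted p under 0.05. Of all 14361 named genes 2537, 1680, 1387 and 1499 did. A mean of at least log2 6 was found for 9 of the 45.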

How the data were processed

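Total RNA of 15 ZR-75-1 samples was amplified, labelled with biotin and hybridised to Affymetrix arrays, per the labels' protocols. The deposited table holds log2 expression values, 1 column per array, for 34878 probe sets. The submitters' processing notes name Partek and RMA. Versions, settings, filters and build are details not given in the sources used here. Part of RMA is a quantile normalization, which removes a shift shared by most genes, and changes close to background are understated.

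The platform annotation gives 1 gene symbol to 14841 probe sets, several to 0, and leaves 20037 unnamed here. Of 485 ZNF probe sets, 14 genes had more than 1, and the one of highest mean was used. All 193 member symbols matched the RefSeq gene table of assembly GRCh38.p14, which was used for names and gene order. limma 3.58.1 in R 4.3.3 (lmFit, eBayes; 10 residual and 3.81 prior degrees of freedom) fitted 5 group means to all named probe sets, 2-sided, with Benjamini-Hochberg adjustment within each of 10 contrasts. The fit was tested on simulated data.

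Named members are those called whose 3 arrays lie clear of the other group (up to 8 per direction against vehicle, up to 4 between compounds), those nearest the level limit, the 3 with the largest within-group SD, and a list of genes with known roles. The differences of ZNF708, the longest run of adjacent members and the second probe sets were chosen for mention after their values were seen. The members and lists were chosen with earlier results of these data known.

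Alternatives were quantile normalization, centring, a replicate block, trended robust eBayes, 2-group fits, all probe sets, no dim probe sets, averaged probe sets, other level limits and leaving out each array. Protein sequences were not used here.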

Additional observations from a re-analysis of the deposited data

How the results depend on the processing

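No called member changed direction under any alternative run. Of 41 calls of a member in a comparison, 17 held under every alternative, 21 with each array left out and 36 with the replicate block. Deviations of arrays with the same replicate number in their titles correlated between -0.054 and 0.067 over 30 pairs. Between arrays of other numbers they correlated between -0.088 and 0.066 over 60 pairs. No broad deviation shared by number was thus seen, which does not show whether same-numbered arrays were handled together. The block took the DEX minus vehicle count from 2 to 4 and moved no other count by over 1.5 times. Leaving out dim probe sets, which leaves fewer tests, gave 21 called members for MPA minus vehicle, 5 for DEX minus vehicle, 10 for MPA minus DHT, 14 for MPA minus DEX, 2 for DHT minus DEX and 18 in the F test. Trended robust eBayes gave 16, 4 and 15 for MPA minus vehicle, DEX minus vehicle and the F test. How many of all named probe sets were called under each alternative was not counted. Whether the members' counts moved more than those of other genes is therefore not known. Fits of the 2 groups alone, with fewer arrays, gave 4, 3 and 1 for MPA, PROG and DEX minus vehicle, 0 for MPA minus PROG, 3 for MPA minus DHT and 4 for MPA minus DEX. A level limit of log2 7, with 94 members, gave 4 for MPA minus vehicle and 4 for MPA minus DEX. Quantile normalization gave 1 for DHT minus DEX. With 1 array left out, which leaves fewer samples, the counts ran from 4 to 8 (MPA), 2 to 5 (PROG), 3 to 4 (DHT) and 1 to 4 (DEX) against vehicle, and for MPA minus DHT from 3 to 5, PROG minus DHT 1 to 3, PROG minus DEX 2 to 4 and DHT minus DEX 0 to 2. Other causes were not tested.

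The members' median difference moved in these cases. For MPA it was -0.030 after quantile normalization or centring and -0.025 to 0.0017 with 1 array left out. For PROG it was -0.0043 after quantile normalization, 0.013 at a limit of log2 5 or 7, and 0.01 to 0.023 with 1 array left out. For DEX it was -0.011 after quantile normalization. Keeping only the 187 members with a vehicle mean of at least log2 6, chosen after seeing the data, gave 7, 5, 3 and 2 calls with MPA, PROG, DHT and DEX. Precision is limited by 3 arrays a group.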

Other observations

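Among the 278 ZNF genes under the level limit, MPA called 3 (1.08%), PROG 2 (0.719%) and DHT 2 (0.719%). Of all named probe sets, 5.93%, 2.82% and 0.889% were called. Those of at least log2 6 were called more often (10.6%, 5.15% and 1.65%), so shares under that level lie below those of all. Shares under log2 6 were not counted, so no comparison at like level was made. DEX called 0 of the 278 in limma's test, with 23 at an unadjusted p under 0.05. Of all named probe sets 1.11% were called with DEX, and 1499 of all 14361 named genes had such an unadjusted p. ZNF750, a regulator of epidermal differentiation, read 5.51, 5.22 and 5.54 with vehicle and 5.93, 5.67 and 5.71 with MPA (0.35 ± 0.091, limma adjusted p = 0.0380). ZNF470 fell with MPA by -0.46 ± 0.097 (limma adjusted p = 0.00899), from arrays of 4.33, 3.99 and 4.22 to 3.66, 3.78 and 3.72, close to the array medians of 3.69 to 3.73. ZNF865 rose with PROG (0.41 ± 0.10, limma adjusted p = 0.0480), with single arrays between 4.53 and 5.07. ZNF506 rose with DHT (0.39 ± 0.084, limma adjusted p = 0.0486). ZNF705A with MPA, ZNF347 with PROG and ZNF385B with DHT were called at mean levels under the array medians, so their values are of little use. ZNF423 and ZNF521, with means of 3.74 and 3.52, were also near or under the array medians.

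Of the 14 ZNF genes with more than 1 probe set, none was called against vehicle on either. The second probe set of ZNF770 had a mean of 3.90 against 9.09 for the first, and that of ZNF384 5.58 against 9.61. That of ZNF451 lay at 6.59 against 8.86 and was the only second probe set above log2 6.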
